A study of Mus musculus with 24 samples.

Results

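The comparison set the cecum of mice with 1 functional copy of Cdx2 (Cdx2+/-) against the ileum of mice with 1 mutant copy of Apc (Apc+/-). Its 6 libraries, 3 per group, were chosen by their labelled tissue and genotype from 24 mouse gut libraries, and all genes were described: 20502 of the 39179 listed passed a filter on low counts. Cdx2 encodes a homeobox transcription factor that sets intestinal identity along the gut, and Apc encodes a scaffold protein that promotes the destruction of β-catenin and so restrains Wnt signalling. Enterocytes of the small intestine carry a brush border with digestive enzymes and nutrient carriers and package dietary fat into lipoproteins. The cecum is a hindgut segment that mainly absorbs salt and water. Mice with 1 functional Cdx2 allele are known to form patches of gastric-type and squamous epithelium near the cecum, and mice with a mutant Apc allele are known to form intestinal adenomas. The labels do not say whether such tissue was taken.

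The Cdx2+/- cecum group is labelled with that genotype and with no treatment, and no floxed allele, Cre or Apc allele is named for it. The Apc+/- ileum group is labelled untreated too and carries ApcD14/+. Its labels conflict. For replicates 1 and 3 the genotype entry adds a floxed Cdx2 allele and an Ah promoter-driven CreERT, while the description calls the Cdx2 allele non-floxed; for replicate 2 no Cre or floxed allele is named. The titles were followed, and the named calls lost with ileum replicate 2 as the only ileum library, a fit of fewer samples, are given at the end of each paragraph. WT cecum, with no named allele or treatment beyond wild type, serves as context, and WT stomach gives levels of gastric genes. Tissue and genotype change together between the groups, so their parts in any difference cannot be told apart. No wild-type ileum and no Apc+/- cecum were analysed here. The labels do not tie replicates to separate animals, and p-values then reflect only how these libraries vary, which may be technical. Ages are not given in the labels.

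Depth was 53462058 to 67373995 reads in genes per Cdx2+/- cecum library and 42387817 to 55010707 per Apc+/- ileum library. Levels are given as CPM, counts scaled by TMM to a common library size, in the order of replicates 1, 2 and 3. Differences are log2 fold changes (Cdx2+/- cecum minus Apc+/- ileum) ± SE from edgeR's quasi-likelihood test, and called means an adjusted p (Benjamini-Hochberg, over all genes tested) under 0.05. Cdx2 (ENSMUSG00000029646; GRCm38 chromosome 5, 147300805 to 147307270, minus strand) itself stood at 118, 115 and 116 CPM in the Cdx2+/- cecum, 90.1, 63.3 and 112 CPM in the Apc+/- ileum and 623, 663 and 408 CPM in the WT cecum. Every Cdx2+/- library was above every ileum library, and the difference was not called (0.40 ± 0.47, adjusted p = 0.509; 95% interval -0.58 to 1.38). Against the WT cecum, Cdx2 was lower in the Cdx2+/- cecum, at -2.28 ± 0.49 on the log2 scale (adjusted p = 0.0014). Its relative Cdx1 was not called either, at 105, 107 and 95.3 CPM against 35.2, 61.6 and 34.3 CPM (1.23 ± 0.78, adjusted p = 0.209). Apc transcript level was 146, 165 and 156 CPM against 122, 218 and 120.1 CPM and the groups overlapped (0.02 ± 0.18, adjusted p = 0.935). A count over the whole gene does not separate mutant from wild-type Apc transcripts.

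The labelled tissues were checked against defining markers. Ileal bile acid genes were present in the ileum group, with Slc10a2, the ileal bile acid carrier, at 36.4, 91.98 and 18.03 CPM and Fabp6, the cytosolic bile acid binding protein, at 241, 244 and 78.4 CPM. They were present in the Cdx2+/- cecum too, where Slc10a2 was higher in every library than in the ileum, as described below. These markers thus did not set the ileum apart. Car1, a carbonic anhydrase of cecal and colonic surface cells, stood at 4395, 3909.8 and 3231 CPM in the Cdx2+/- cecum and at 0.119, 4.71 and 2.44 CPM in the ileum, whereas Hoxd13 had 0 reads in both groups. The other cecal markers, Aqp8 and Slc37a2, were above the ileum in the Cdx2+/- cecum but far under the WT cecum, as given below. The Cdx2+/- libraries did not form a uniform group. Replicate 2 was low in keratinocyte transcripts: 18 genes of at least 5 CPM elsewhere were more than 10 times lower in it than in both other Cdx2+/- libraries, and 16 of these were on the squamous lists, among them the basal keratin Krt5 at 197, 0.382 and 122 CPM. No absorptive or gastric list member was more than 10 times lower in replicate 2. More than 2 times lower in it than in both other Cdx2+/- libraries were 0 absorptive, 7 gastric and 32 squamous members. Squamous results are therefore given with and without it. Replicate 1 was more than 10 times above both other Cdx2+/- libraries in 17 genes. Among these, in examples chosen after their values were seen, were the keratinocyte genes Sprr2d, at 41.6, 0.0174 and 2.38 CPM, and Calm4, at 35.9, 0.0174 and 1.34 CPM. Others were Gm42418, annotated over the ribosomal RNA repeat, at 8584, 516 and 363 CPM, and Lars2, a mitochondrial leucyl-tRNA synthetase gene, at 2624, 216 and 152 CPM. Without Cdx2+/- replicate 1, 3744 of all genes were called higher and 3531 lower. The ileum libraries were uneven too. By the same factor, ileum replicate 1 was above both others in 13 genes, such as the B cell gene Fcer2a, and under them in 2. Ileum replicate 2, which serves alone as the check on the labels, was above them in 9 and under them in 10, such as Gata4, Enpp7 and Plb1. For ileum replicate 3 the counts were 3 and 2. Calm4 was not called with ileum replicate 2 as the only ileum library.

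Between the groups, 4515 genes (22.0% of those tested) were called higher in the Cdx2+/- cecum and 4521 (22.1%) lower, and the median log2 fold change over all genes was -0.04. Called genes were thus split 49.97% upward, and upper quartile scaling, which shifted the median by -0.17, gave 38.0% upward with 3487 higher and 5681 lower. The groups did not overlap, with every Cdx2+/- library higher, for 30.5% of genes and with every one lower for 29.7%. These shares are the background for the lists that follow. The lists were chosen with earlier results of these data known, so an excess over these shares is a description and not a test. Of 109 absorptive genes tested, 26 were called higher and 16 lower. Retinoid and xenobiotic enzymes made up 15 of the 26, and the other 4 absorptive lists gave 11 higher and 16 lower of 85. Of 53 gastric genes, 34 were higher and 4 lower, and of 66 squamous genes 48 were higher and 2 lower. The theme medians were 0.54, 2.12 and 2.93 on the log2 scale. In bulk tissue, fewer cells of a type and less RNA per cell cannot be told apart.

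**Figure D1:**
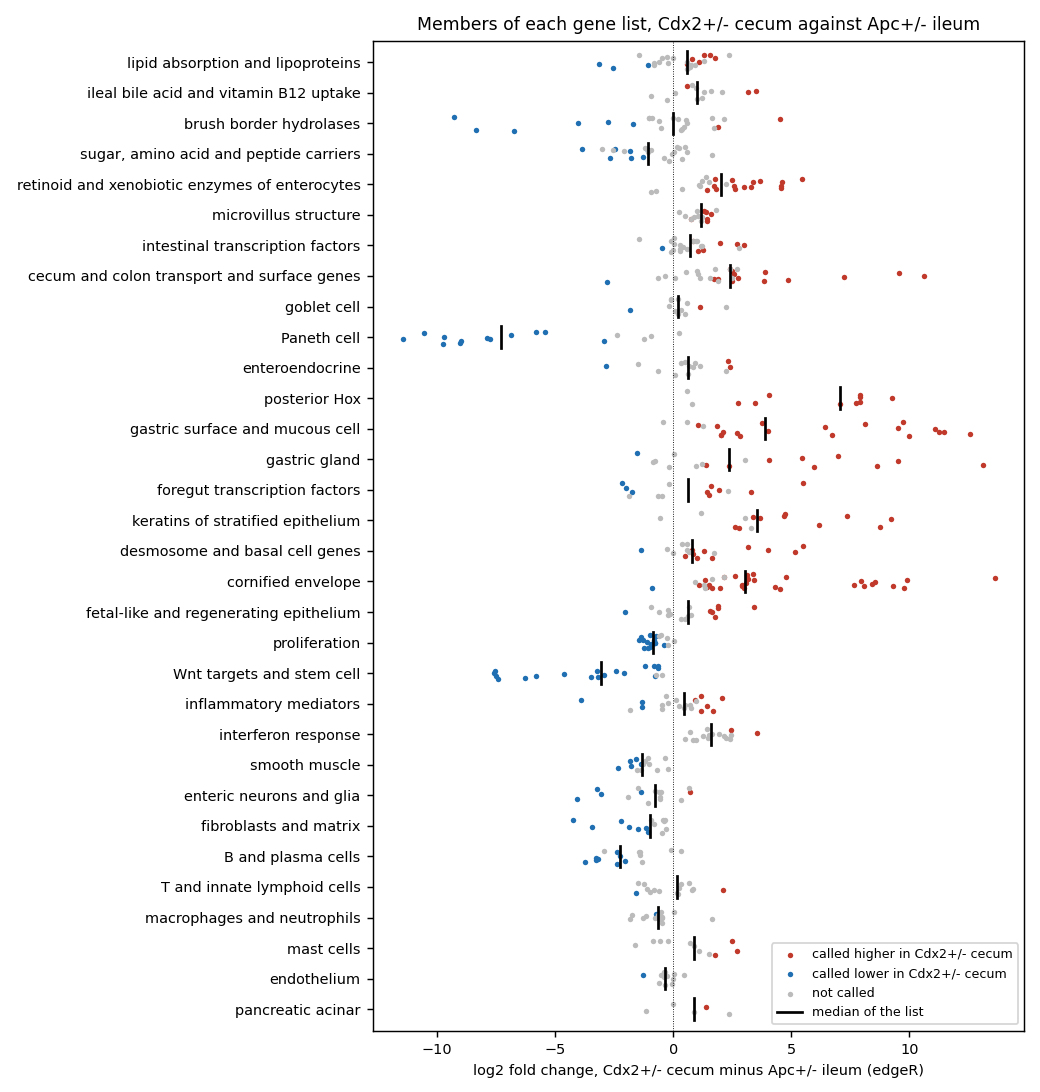
Log2 fold change (horizontal axis, Cdx2+/- cecum minus Apc+/- ileum, from edgeR) of each tested member of 32 gene lists (vertical axis). Each point is a gene, coloured by its call at an adjusted p under 0.05, and black bars are list medians. Gastric surface, posterior Hox and cornified envelope genes lie to the right of 0, and Paneth cell and Wnt target genes to the left.

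The largest differences of single genes, taken among genes of at least 10 CPM in the higher group whose libraries did not overlap, were these. Higher in the Cdx2+/- cecum were Krtdap, a keratinocyte differentiation protein, Pga5, a pepsinogen, Gkn2 (gastrokine), Calm4, a calmodulin-like protein of keratinocytes, Psca, Chil4 (a chitinase-like protein), the mucin-like gene Mucl3, and the trefoil peptide gene Tff2. Krtdap, Pga5 and Calm4 had 0 reads in all 3 ileum libraries, which puts their means at least 568, 404 and 243-fold higher in the Cdx2+/- cecum, set against 3 reads per library. The mean of Calm4 rests on replicate 1, since its Cdx2+/- libraries were at 35.9, 0.0174 and 1.34 CPM. Chil4 stood at 41.9, 60.96 and 41.9 CPM against 0, 0.0186 and 0.0309 CPM, which is 3 reads in all, a ratio of 2926 (95% counting interval 1001 to 14189) in the means. Largest in the other direction were the Paneth cell α-defensin genes Defa20, Defa33, Defa17, Defa21 and Defa37 and 3 genes on no list. Slc38a4, a neutral amino acid carrier, was at 0.217, 0.0695 and 0.275 CPM in the Cdx2+/- cecum and 614, 664 and 636 CPM in the ileum (-11.74 ± 1.52, adjusted p = 1.26e-05). Gulo, the last enzyme of vitamin C synthesis, was at 27.9, 33.5 and 17.01 CPM in the ileum and at most 0.0347 CPM in the Cdx2+/- cecum, which had 3 reads in all, so the ratio of the ileum mean to the Cdx2+/- mean was 1478 (95% counting interval 506 to 7168). Igfbp1, an insulin-like growth factor binding protein, had 10.3, 13.2 and 16.96 CPM in the ileum and 0 reads in the Cdx2+/- cecum, at least 235-fold lower. Defa20 was at least 407-fold lower and Defa33 at least 188-fold lower by the same bound; α-defensin copies can exchange reads.

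Small-intestinal absorptive genes, such as those of fat uptake and of the brush border, were abundant in both groups, and part of them differed. Of the 109 tested, 67 (61.5%) were not called, against 55.9% of all genes. A missed threshold does not show equal levels: of these 67, 21 had a 95% interval within 2 log2 units of 0 and 3 within 1. Set against the WT cecum in the same fit, 48 absorptive genes were higher and 9 lower in the Cdx2+/- cecum (17.1% and 17.3% of all genes), and 56 were higher and 26 lower in the Apc+/- ileum (28.1% and 27.2% of all genes); both counts rest on the same WT libraries. With the 6 libraries fitted alone, 40 of 108 absorptive genes tested were called higher than in the ileum and 18 lower. In that fit 4742 of all 18500 genes were called higher and 5000 lower.

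Genes of fat absorption gave 6 higher and 3 lower of 26 tested, with a median of 0.58. The share higher was close to the 22.0% of all genes, and the share lower was under the 22.1%. The examples without a call in this and the following paragraphs were chosen after their values were seen. Mttp, the microsomal triglyceride transfer protein needed to assemble chylomicrons, was at 143, 252 and 163 CPM in the Cdx2+/- cecum and 223, 120.3 and 327 CPM in the ileum, and the groups overlapped (-0.26 ± 0.74, adjusted p = 0.794; 95% interval -1.80 to 1.28). The WT cecum held 1.91, 2.28 and 2.29 CPM. Npc1l1, the cholesterol importer of the brush border, was at 113, 324 and 191 CPM against 189.7, 128 and 319 CPM (-0.02 ± 0.99, adjusted p = 0.989; 95% interval -2.09 to 2.05) and at most 1.88 CPM in the WT cecum. The apolipoprotein genes Apoa1 (284, 1179.9 and 625 CPM against 921, 491 and 1767 CPM) and Apob (1181, 2569.7 and 1474 CPM against 696, 1132 and 1536 CPM) were not called. In each of these 4 genes replicate 2 of the Cdx2+/- cecum was the highest of its group. Called higher in the Cdx2+/- cecum were Dgat2, which makes triglycerides (440.2, 382 and 384 CPM against 119, 82.2 and 152 CPM; 1.77 ± 0.39, adjusted p = 0.00137), Sar1b, which moves chylomicrons out of the endoplasmic reticulum (0.79 ± 0.18, adjusted p = 0.00207), and the lipid droplet genes Cideb (1.57 ± 0.41, adjusted p = 0.00491) and Plin2 (1.10 ± 0.33, adjusted p = 0.0114). Lower were Abca1, the cholesterol exporter (15.05, 19.7 and 20.5 CPM against 90.1, 132 and 96.2 CPM; -2.53 ± 0.30, adjusted p = 4.99e-06), the fatty acid receptor Cd36 (-1.06 ± 0.31, adjusted p = 0.0107) and Fabp1, a fatty acid binding protein. Fabp1 was at 7.71, 3.49 and 2.16 CPM against 13.6, 1.93 and 102 CPM (-3.14 ± 1.26, adjusted p = 0.0499), and ileum replicate 3 decided its value: without it the log2 fold change was -0.81 (adjusted p = 0.603), and leaving out any 1 Cdx2+/- library ended the call as well (adjusted p up to 0.143). With ileum replicate 2 as the only ileum library it was 1.18 (adjusted p = 0.607). The call of Cd36 ended without Cdx2+/- cecum replicate 2 (adjusted p = 0.0538). The call of Plin2 ended without Apc+/- ileum replicate 2 (adjusted p = 0.0526). Plin2 was not called with ileum replicate 2 as the only ileum library.

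Brush border hydrolases gave 2 higher and 6 lower of 23 tested, with a median near 0, beside 22.0% and 22.1% of all genes. Sis, sucrase-isomaltase, the enzyme that splits sucrose and starch fragments, was at 169, 361 and 367 CPM in the Cdx2+/- cecum, 327, 556 and 485 CPM in the ileum and 1.03, 1.49 and 1.56 CPM in the WT cecum (-0.61 ± 1.42, adjusted p = 0.75 against the ileum; 95% interval -3.58 to 2.36). The intervals of such genes are wide: a difference of several fold in either direction lies inside. The Sis promoter is a classic target of Cdx2 and is shown for that reason. The window is the 250 bases before the start in RefSeq's annotation of GRCm38.p6, on the minus strand at chr3:72967864-72968113, written 5′ to 3′, with capitals marking the letters TTTATG of the Cdx core, which stand 43 to 38 bases before the start.
Sis promoter: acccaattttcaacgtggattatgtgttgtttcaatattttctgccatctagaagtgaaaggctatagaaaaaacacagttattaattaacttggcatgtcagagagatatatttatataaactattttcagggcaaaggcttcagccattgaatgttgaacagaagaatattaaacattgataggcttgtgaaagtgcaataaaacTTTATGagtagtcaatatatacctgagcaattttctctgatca
The motif, read on both strands, is held by 10.8% of all 32851 promoter windows of this length and by 13.9% of the 122 windows of absorptive list genes, so a match is common and is no more than a description. Anpep, aminopeptidase N, was at 936, 2121 and 1171 CPM against 965, 868 and 1285 CPM (0.44 ± 0.88, adjusted p = 0.707), and the peptidase gene Naaladl1 at 398, 867 and 543 CPM against 463, 488 and 487 CPM (0.33 ± 1.45, adjusted p = 0.871); the WT cecum held at most 28.3 CPM and 26.9 CPM. Other hydrolases were called lower. Lct, lactase, was at 0, 0.122 and 0.0549 CPM in the Cdx2+/- cecum and 2.23, 0.538 and 59.02 CPM in the ileum (-8.33 ± 1.54, adjusted p = 0.000326). Enpp7, alkaline sphingomyelinase, was at 0, 0.174 and 0.11 CPM against 52.9, 1.60 and 136 CPM (-9.29 ± 2.74, adjusted p = 0.0175), and Plb1, a brush border phospholipase, at 0.673, 0.747 and 0.293 CPM against 39.04, 0.464 and 143 CPM (-6.73 ± 1.65, adjusted p = 0.00297). In these 3 genes the ileum libraries themselves differed by over 10 times, with replicate 3 the highest and replicate 2 the lowest, so the size of the difference is poorly set. In Plb1 the groups overlapped, and with ileum replicate 2 as the only ileum library the log2 fold change was 0.28 (adjusted p = 0.921). Mme, neprilysin, was lower without such a spread, at 0.825, 3.09 and 1.21 CPM against 22.9, 17.7 and 43.98 CPM (-4.04 ± 1.18, adjusted p = 0.0098). Higher were Akp3, an intestinal alkaline phosphatase (28.8, 7.56 and 0.0733 CPM against 0.391, 0.427 and 0.757 CPM; 4.52 ± 1.58, adjusted p = 0.0279), whose groups overlapped, and Cel, the bile salt lipase, which was at trace level in both (0.174, 0.122 and 0.165 CPM against 0.034, 0.0557 and 0.0309 CPM; 1.88 ± 0.57, adjusted p = 0.0124). The call of Akp3 ended without Cdx2+/- cecum replicate 1 or Apc+/- ileum replicate 1, 2 or 3 (adjusted p = 0.0601 to 0.154). The call of Enpp7 ended without Cdx2+/- cecum replicate 1, 2 or 3 (adjusted p = 0.0545 to 0.0625). Cel, Akp3, Lct, Mme and Enpp7 were not called with ileum replicate 2 as the only ileum library.

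Carriers of sugars, amino acids and peptides gave 0 higher and 7 lower of 23 tested, with a median of -1.04. Slc6a19, the main neutral amino acid carrier of the brush border, was at 101, 266 and 139 CPM against 72.4, 103 and 218 CPM (0.37 ± 1.35, adjusted p = 0.846), and Slc15a1, the peptide carrier, at 87.7, 161 and 88.2 CPM against 56.5, 44.2 and 135 CPM (0.51 ± 0.92, adjusted p = 0.671). Neither was called, the groups overlapped in both, and the WT cecum held at most 1.49 CPM and 6.23 CPM. The named called members were of lower abundance. They were Slc19a3, a thiamine carrier (0.413, 0.347 and 0.256 CPM against 4.97, 7.13 and 2.80 CPM; -3.87 ± 0.55, adjusted p = 2.83e-05), Slc23a1, a vitamin C carrier (-1.79 ± 0.30, adjusted p = 0.000152), and the amino acid carriers Slc7a8 (8.01, 6.24 and 7.07 CPM against 23.2, 16.4 and 36.1 CPM; -1.83 ± 0.36, adjusted p = 0.000519) and Slc16a10 (-1.11 ± 0.29, adjusted p = 0.0042). Slc7a8 was not called with ileum replicate 2 as the only ileum library.

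Genes of ileal bile acid and vitamin B12 uptake gave 3 higher and 0 lower of 13, with a median of 1.03. The share higher was close to the 22.0% of all genes. Fabp6 was at 15.3, 152 and 122 CPM in the Cdx2+/- cecum, against 241, 244 and 78.4 CPM in the ileum and at most 0.431 CPM in the WT cecum (-0.95 ± 1.57, adjusted p = 0.644 against the ileum; 95% interval -4.24 to 2.33). Slc10a2 was at 152, 253 and 201 CPM against 36.4, 91.98 and 18.03 CPM, with no overlap and no call (2.05 ± 1.04, adjusted p = 0.116; 95% interval -0.12 to 4.22). Fgf15, the hormone released by ileal cells on bile acid uptake, was at 6.71, 14.3 and 10.6 CPM against 4.78, 0.26 and 7.69 CPM (1.31 ± 1.28, adjusted p = 0.419). The basolateral bile acid exporter subunit gene Slc51a was at 184, 289.6 and 281 CPM against 108, 108 and 106 CPM (1.23 ± 1.09, adjusted p = 0.376). The called members were Abcc3, a conjugate exporter (595, 625 and 516 CPM against 63.7, 63.8 and 64.9 CPM; 3.17 ± 0.33, adjusted p = 1.36e-06), Tcn2, the vitamin B12 carrier protein of plasma (0.59 ± 0.21, adjusted p = 0.0309), and Nr0b2, a bile acid-responsive nuclear receptor of low level (1.48, 2.10 and 1.21 CPM against 0.051, 0.0557 and 0.294 CPM; 3.53 ± 1.09, adjusted p = 0.0134). The call of Nr0b2 ended without Apc+/- ileum replicate 1 or 2 (adjusted p = 0.0532 to 0.0568). The call of Tcn2 ended without Cdx2+/- cecum replicate 1 or 2 or Apc+/- ileum replicate 1 or 2 (adjusted p = 0.062 to 0.105). Nr0b2 and Tcn2 were not called with ileum replicate 2 as the only ileum library.

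Retinoid and xenobiotic enzymes were higher in the Cdx2+/- cecum for 15 of 24 genes and lower for 0, with a median of 2.02. The glutathione transferase gene Gsta4 was at 1458, 1472 and 1254 CPM against 66.1, 43.7 and 60.1 CPM (4.62 ± 0.42, adjusted p = 5.42e-07) and at 42.7, 42.5 and 28.5 CPM in the WT cecum. Gsta1, of the same family, was at 906, 1045 and 758 CPM against 21.2, 13.6 and 26.7 CPM (5.46 ± 0.68, adjusted p = 8.2e-06), and its WT cecum level was at most 25.7 CPM. Both genes were high in the WT stomach, at 2336, 1863 and 1910.1 CPM for Gsta4 and 1858, 1899 and 1903 CPM for Gsta1. The P450 genes Cyp2c65 (379, 318 and 251 CPM against 14.1, 9.17 and 16.5 CPM; 4.58 ± 0.51, adjusted p = 3.05e-06) and Cyp2j6 (1.43 ± 0.19, adjusted p = 1.25e-05) were at WT cecum level, 546, 310.1 and 275 CPM for Cyp2c65. The list, though made of enterocyte enzymes, thus holds genes that the cecum or stomach also expresses.

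**Figure D2:**
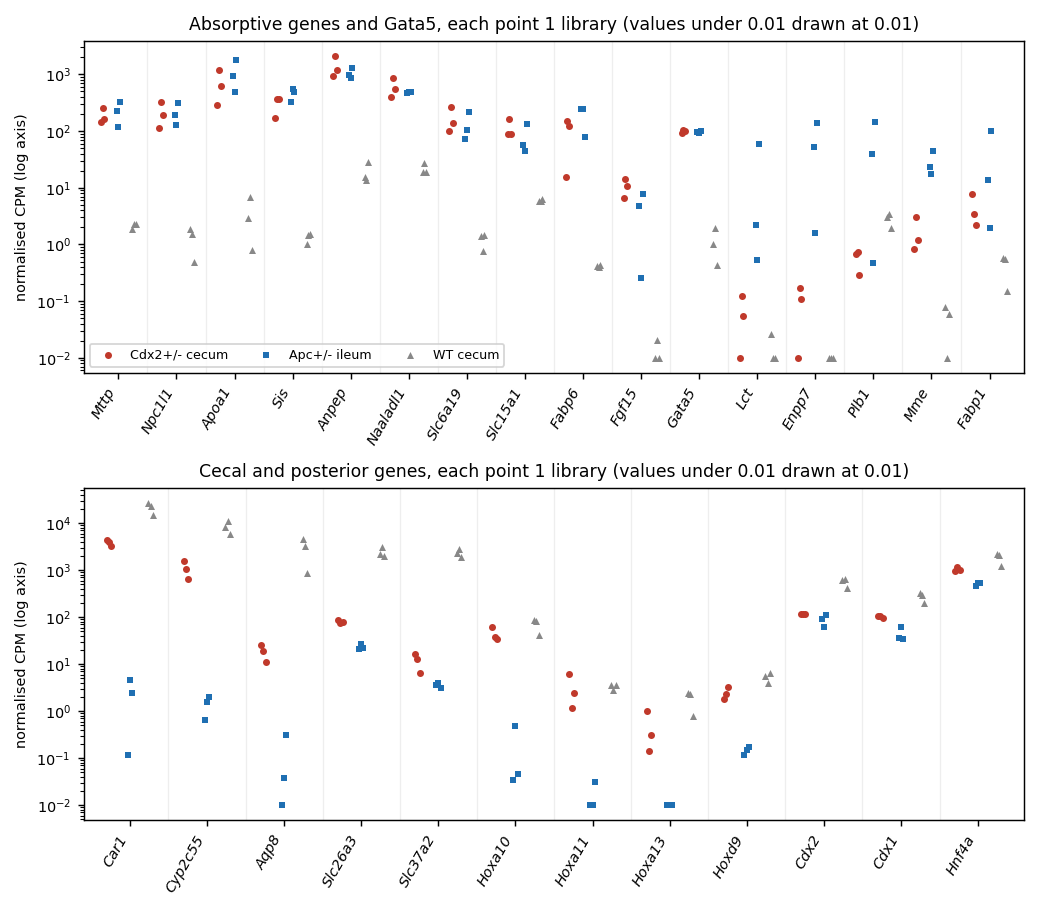
Normalised CPM (vertical axis, log scale) of absorptive genes with Gata5 (top) and of cecal, posterior and intestinal regulator genes (bottom) in the Cdx2+/- cecum, Apc+/- ileum and WT cecum; each point is 1 library. Mttp to Gata5 overlap or lie close between the Cdx2+/- cecum and the ileum, Lct to Fabp1 lie mostly lower, and Car1, Cyp2c55 and Hoxa10 separate the groups.

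Cecal identity genes marked the Cdx2+/- cecum off from the ileum. Of 11 posterior Hox genes tested, which pattern the hindgut, 9 were higher and 0 lower, with a median of 7.08 (4.06 with the genes at 0 reads set to their bound). Hoxa10 was at 60.4, 37.8 and 35.2 CPM in the Cdx2+/- cecum, 0.034, 0.483 and 0.0463 CPM in the ileum and 88.5, 82.5 and 42.1 CPM in the WT cecum (7.93 ± 1.09, adjusted p = 2.14e-05 against the ileum). Hoxa11 (6.30, 1.15 and 2.42 CPM against 0, 0 and 0.0309 CPM), Hoxd9 (1.82, 2.28 and 3.32 CPM against 0.119, 0.149 and 0.17 CPM) and Hoxd10 (1.85, 1.82 and 2.01 CPM against 0, 0.0186 and 0 CPM) were higher at lower levels. The log2 fold change of Hoxd9 was 4.06. Hoxa11 had 2 reads in all in the ileum, a ratio of 319 (95% counting interval 88.3 to 2635) in the means, and Hoxd10 had 1 read, a ratio of 306 (95% counting interval 54.96 to 12094). Hoxa13, the most posterior member of its cluster, had 0 reads in the ileum and 1.02, 0.139 and 0.311 CPM in the Cdx2+/- cecum, at least 9.61-fold higher in the mean. In Hoxa10, Hoxa11 and Hoxa13 replicate 1 was the highest of the Cdx2+/- libraries. Genes of cecal and colonic transport gave 13 higher and 1 lower of 27, with a median of 2.39; part of that list was taken from an earlier analysis of these libraries. Car1 was called (10.63 ± 2.40, adjusted p = 0.00161), as were Cyp2c55, a cecal P450 (1568, 1045 and 648 CPM against 0.647, 1.60 and 2.04 CPM; 9.57 ± 1.93, adjusted p = 0.000669), Slc9a2, a sodium-proton exchanger (2.48 ± 0.45, adjusted p = 0.000265), and the epithelial sodium channel subunits Scnn1a (79.01, 70.5 and 54.1 CPM against 11.3, 12.98 and 11.5 CPM; 2.51 ± 0.37, adjusted p = 4.64e-05) and Scnn1g (8.92, 13.1 and 8.44 CPM against 0.221, 0.501 and 0.309 CPM; 4.88 ± 0.48, adjusted p = 9.87e-07). Slc9a3, the main sodium-proton exchanger of absorptive cells, was lower, at 35.7, 51.6 and 19.01 CPM against 234, 300.4 and 202 CPM (-2.79 ± 0.94, adjusted p = 0.0223). Most of this list was under the WT cecum. Against it, 1 of the 27 genes was higher and 15 lower in the Cdx2+/- cecum, with a median of -2.64 (17.1% and 17.3% of all genes). In the ileum 1 was higher and 23 lower (28.1% and 27.2% of all genes). Examples far under the WT cecum in both groups were these. The water channel gene Aqp8 was at 25.6, 19.12 and 11.01 CPM in the Cdx2+/- cecum, at most 0.309 CPM in the ileum and 4556, 3329 and 881 CPM in the WT cecum (7.24 ± 2.12, adjusted p = 0.00985 against the ileum). Slc37a2, a sugar phosphate carrier, was at 16.5, 12.9 and 6.54 CPM, 3.64, 3.99 and 3.14 CPM and 2369, 2825 and 1914 CPM in the same order (1.74 ± 0.51, adjusted p = 0.0105 against the ileum), and the chloride exchanger gene Slc26a3 at 85.7, 73.5 and 79.5 CPM, 20.6, 26.5 and 22.1 CPM and 2245, 3164 and 1975 CPM. Against the WT cecum Slc37a2 was lower, at -7.63 ± 0.66 on the log2 scale (adjusted p = 1.29e-07). The call of Slc37a2 against the ileum ended without Cdx2+/- cecum replicate 1 (adjusted p = 0.0506). The call of Slc9a3 ended without Cdx2+/- cecum replicate 1 or 3 (adjusted p = 0.0649 to 0.0838). Slc9a3, Car1, Aqp8, Slc37a2 and Hoxa13 were not called with ileum replicate 2 as the only ileum library.

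Among 24 intestinal transcription factor genes, 6 were higher and 1 lower, beside 22.0% and 22.1% of all genes. Among those higher were Klf4, a factor of differentiated surface cells (641, 676 and 567 CPM against 75.5, 73.4 and 89.8 CPM; 2.98 ± 0.42, adjusted p = 2.53e-05), the xenobiotic receptor gene Nr1i2 (1.28 ± 0.33, adjusted p = 0.00443), Hnf4a (1.05 ± 0.33, adjusted p = 0.0161) and Pdx1, a duodenal and antral factor (46.99, 35.8 and 30.1 CPM against 4.32, 6.98 and 6.16 CPM; 2.69 ± 0.80, adjusted p = 0.0106). The GATA factors of the small intestine and foregut did not move together. Gata5 was at 93.6, 107 and 100.04 CPM against 98.2, 93.4 and 99.3 CPM (0.05 ± 0.28, adjusted p = 0.908; 95% interval -0.54 to 0.63), a value that turned to -0.12 under upper quartile scaling, with at most 1.95 CPM in the WT cecum. Gata4, which marks proximal small intestine and stomach, was at 150.2, 131 and 126 CPM against 14, 1.19 and 43.1 CPM with no overlap; it missed the threshold (2.80 ± 1.14, adjusted p = 0.0535) and passed it with DESeq2 (adjusted p = 0.0412) and limma-voom (adjusted p = 0.00643). Microvillus structure genes gave 6 higher and 0 lower of 15, led by Baiap2l1 (219, 261 and 229 CPM against 77.1, 74.96 and 81.3 CPM; 1.60 ± 0.23, adjusted p = 3.16e-05), Anks4b (1.39 ± 0.41, adjusted p = 0.00992), the membrane linker gene Ezr (1.43 ± 0.43, adjusted p = 0.0111) and the actin regulator gene Eps8 (0.75 ± 0.26, adjusted p = 0.0269). Vil1, villin, was not called (1423, 1879 and 1625 CPM against 915, 844 and 1133 CPM). Against the WT cecum, 0 of the 15 microvillus genes were higher and 1 lower in the Cdx2+/- cecum (17.1% and 17.3% of all genes). In the ileum 0 were higher and 11 lower than in the WT cecum (28.1% and 27.2% of all genes). Of the 24 transcription factor genes, 6 were higher and 3 lower than in the WT cecum in the Cdx2+/- cecum. In the ileum 5 were higher and 11 lower. The call of Eps8 ended without Cdx2+/- cecum replicate 2 or 3 or Apc+/- ileum replicate 1 or 3 (adjusted p = 0.0661 to 0.103). The call of Hnf4a ended without Cdx2+/- cecum replicate 2 or Apc+/- ileum replicate 1 (adjusted p = 0.0502 to 0.0588). Anks4b, Ezr, Eps8, Nr1i2, Pdx1 and Hnf4a were not called with ileum replicate 2 as the only ileum library.

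Secretory lineages differed by cell type. Paneth cells, the antimicrobial cells of small-intestinal crypts, are normally absent from the cecum or scarce there, and 12 of 16 Paneth genes were lower in the Cdx2+/- cecum and 0 higher, with a median of -7.30 (-6.34 with genes at 0 reads set to their bound). Lyz1, lysozyme, was at 2.15, 3.63 and 2.34 CPM against 762, 2602 and 797 CPM (-9.00 ± 1.42, adjusted p = 7.74e-05). Defa24 was at 1.17, 3.21 and 0.513 CPM against 289.6, 526 and 247 CPM (-7.75 ± 1.20, adjusted p = 6.24e-05), and Defa30 at 0.217, 0.0695 and 0.0549 CPM against 49.6, 84.5 and 40.99 CPM (-9.03 ± 1.32, adjusted p = 3.86e-05). Mmp7, the metalloproteinase that activates α-defensins, was at 6.80, 6.24 and 6.83 CPM against 321, 287 and 258 CPM (-5.45 ± 0.97, adjusted p = 0.000222), and the phospholipase gene Pla2g2a at 4.99, 2.76 and 3.06 CPM against 444, 395 and 414 CPM (-6.86 ± 1.22, adjusted p = 0.000222). The summed level of the 16 genes ran from 1819.6 to 5042 CPM in the Cdx2+/- cecum, 5513 to 11183 CPM in the ileum and 46.1 to 108 CPM in the WT cecum. The lectin genes Reg3b and Reg3g, which enterocytes also express and which may exchange reads, made up most of the sum in the Cdx2+/- cecum. Goblet cell genes gave 1 higher and 1 lower of 12, under the 22.0% and 22.1% of all genes. Muc2, the gel-forming mucin, was at 1097, 1610.1 and 1673 CPM against 1765, 1592 and 1537 CPM (-0.16 ± 0.80, adjusted p = 0.889). Agr2, a chaperone of mucin folding, was higher (1192, 1128 and 1137 CPM against 490.4, 622 and 465 CPM; 1.13 ± 0.38, adjusted p = 0.0222), and the chemokine gene Ccl6 was lower (-1.84 ± 0.65, adjusted p = 0.0275). Of 14 enteroendocrine genes, the hormone genes Sst (6.77, 10.2 and 8.52 CPM against 1.21, 1.89 and 1.67 CPM; 2.42 ± 0.86, adjusted p = 0.0296) and Sct (2.30 ± 0.88, adjusted p = 0.0407) were higher and Tac1 was lower (-2.84 ± 0.88, adjusted p = 0.014). The call of Agr2 ended without Cdx2+/- cecum replicate 1 or Apc+/- ileum replicate 1 or 3 (adjusted p = 0.0514 to 0.0692). The call of Ccl6 ended without Cdx2+/- cecum replicate 1 or 3 or Apc+/- ileum replicate 1 or 2 (adjusted p = 0.0648 to 0.0959). The call of Sct ended without Cdx2+/- cecum replicate 2 or 3 or Apc+/- ileum replicate 1, 2 or 3 (adjusted p = 0.0609 to 0.12). The call of Sst ended without Cdx2+/- cecum replicate 2 or 3 or Apc+/- ileum replicate 1, 2 or 3 (adjusted p = 0.0527 to 0.0928). The call of Tac1 ended without Cdx2+/- cecum replicate 1 or 2 (adjusted p = 0.0551 to 0.0596). Agr2, Ccl6, Sst, Sct and Tac1 were not called with ileum replicate 2 as the only ileum library.

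Gastric genes were high in all 3 Cdx2+/- libraries. Of 22 genes of gastric surface and mucous cells, 19 were higher in the Cdx2+/- cecum and 0 lower, with a median of 3.90, and their summed level was 42906 to 44734 CPM against 1727 to 2366 CPM in the ileum. The same sum was 295 to 1391 CPM in the WT cecum and 115490.0 to 126163 CPM in the WT stomach. The gastrokine genes Gkn1 and Gkn2, which encode secreted proteins of gastric surface cells, showed large differences. Gkn1 was at 12367, 13181 and 13349 CPM against 9.22, 4.10 and 25.1 CPM (9.98 ± 1.61, adjusted p = 9.34e-05), and Gkn2 at 9729, 10308 and 10258 CPM against 0.204, 0.111 and 4.67 CPM (12.56 ± 2.02, adjusted p = 9.13e-05). The 3 Cdx2+/- libraries lay within a narrow band in both. The genes lie close together on chromosome 6 of GRCm38, Gkn1 at 87345650 to 87350942 on the minus strand and Gkn2 at 87373357 to 87379497 on the plus strand. Their promoters are shown for the size of these differences. Each window is the 250 bases before the start in RefSeq's annotation of GRCm38.p6, 5′ to 3′ on the gene's strand, Gkn1 at chr6:87350916-87351165 and Gkn2 at chr6:87373115-87373364, with capitals marking the GATA core, letters AGATAA. The start used for each window lies inside the listed extent of the gene, further in for Gkn1 than for Gkn2. The last bases of each window therefore fall within that extent.
Gkn1 promoter: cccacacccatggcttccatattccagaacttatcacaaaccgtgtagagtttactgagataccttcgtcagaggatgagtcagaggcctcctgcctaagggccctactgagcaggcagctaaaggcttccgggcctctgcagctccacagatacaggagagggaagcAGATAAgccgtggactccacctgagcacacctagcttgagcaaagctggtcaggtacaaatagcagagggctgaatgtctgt
Gkn2 promoter: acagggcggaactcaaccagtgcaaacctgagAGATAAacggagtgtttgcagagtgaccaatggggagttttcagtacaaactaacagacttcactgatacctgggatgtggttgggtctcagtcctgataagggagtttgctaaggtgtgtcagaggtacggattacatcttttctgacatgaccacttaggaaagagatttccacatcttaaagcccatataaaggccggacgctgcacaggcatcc
The GATA core stands 82 to 77 bases before the start in Gkn1 and 218 to 213 bases before it in Gkn2. On both strands it occurs in 9.99% of all windows and in 13.5% of 52 windows of gastric list genes. The share was 14.8% for absorptive and 7.55% for squamous list genes, so the motif is not particular to gastric genes. Neither window holds the Cdx core or the SOX core (letters ACAAAG, in 16.5% of all windows), and no motif found overlapped another. For the absorptive, gastric and squamous lists, 95 of 112, 37 of 55 and 48 of 79 genes had a window.

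Tff2, a trefoil peptide of mucous neck cells, was at 8643, 5909 and 6539 CPM against 1.29, 1.97 and 6.30 CPM (11.10 ± 1.60, adjusted p = 3.41e-05) and at 1050.4, 1259.7 and 1977 CPM in the WT stomach. The surface mucin gene Muc5ac was at 995, 1041 and 1829 CPM against 1.12, 1.84 and 1.58 CPM (9.73 ± 1.62, adjusted p = 0.000129), and Tff1, its companion trefoil peptide, at 288, 246 and 219 CPM against 0.238, 0.111 and 0.649 CPM (9.52 ± 1.49, adjusted p = 7.15e-05). Psca, a membrane-anchored surface protein, was at 2164, 2055 and 1379.9 CPM against 0.51, 0.204 and 1.21 CPM (11.49 ± 1.29, adjusted p = 3.28e-06). Mucl3 was at 3003, 2602 and 2541 CPM against 1.07, 0.557 and 1.65 CPM (11.27 ± 1.83, adjusted p = 9.98e-05), and the membrane mucin gene Muc1 at 408, 502 and 412 CPM against 1.21, 1.11 and 2.39 CPM (8.12 ± 0.92, adjusted p = 3.59e-06). Cldn18, the gastric tight junction claudin, was at 989, 1126 and 861 CPM against 8.25, 6.89 and 12.9 CPM (6.73 ± 1.63, adjusted p = 0.00276). Sult1c2, a sulfotransferase (6.42 ± 0.69, adjusted p = 2.29e-06), and Capn8, a gastric calpain (2.82 ± 0.40, adjusted p = 2.94e-05), were higher as well. Some gastric genes were already abundant in the Apc+/- ileum. Muc6, the mucin of gland mucous cells, was at 589, 803 and 623 CPM against 589, 1523 and 580.03 CPM (-0.42 ± 0.83, adjusted p = 0.705; 95% interval -2.16 to 1.32) with at most 8.05 CPM in the WT cecum. Ctse, cathepsin E, was at 1519, 1573 and 1281 CPM against 473, 303 and 437 CPM (1.85 ± 0.62, adjusted p = 0.0217), Gkn3 at 1638, 1484 and 1191 CPM against 267, 147 and 245 CPM (2.71 ± 1.02, adjusted p = 0.0384) and Anxa10 at 1067, 1281 and 1079 CPM against 63.6, 36.3 and 110.0 CPM (4.03 ± 1.33, adjusted p = 0.0193). Leaving out any 1 of the 6 libraries ended the call of Gkn3 (adjusted p between 0.0535 and 0.114). The call of Anxa10 ended without Apc+/- ileum replicate 1 or 2 (adjusted p = 0.0632 to 0.0707). The call of Ctse ended without Apc+/- ileum replicate 2 (adjusted p = 0.0768). Gkn3, Cldn18, Ctse and Anxa10 were not called with ileum replicate 2 as the only ileum library.

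Gastric gland genes gave 9 higher and 1 lower of 17, with a median of 2.37, at levels far under the stomach. The pepsinogen gene Pgc, of chief cells, was at 904, 419 and 872 CPM against 6.25, 5.81 and 5.30 CPM (6.98 ± 1.65, adjusted p = 0.00235) and at 130327, 152413 and 103951 CPM in the WT stomach. The WT cecum held 16.1, 355 and 1.55 CPM, so its replicate 2 lay close to the Cdx2+/- libraries; the same WT library was the highest of its group in Gkn1, at 114, 305 and 1.56 CPM. Pga5, another pepsinogen, was at 34.3, 18.6 and 8.81 CPM with 0 reads in the ileum (adjusted p = 1.81e-05). The acid pump subunit genes of parietal cells were low in the Cdx2+/- cecum and higher than in the ileum: Atp4a was at 75.6, 13.7 and 43.6 CPM against 0.545, 2.02 and 0.479 CPM (5.45 ± 1.61, adjusted p = 0.0102) and Atp4b at 38.04, 7.45 and 25.4 CPM against 0.034, 0.0743 and 0.0618 CPM (8.65 ± 1.65, adjusted p = 0.000428), where the WT stomach had 8356, 9545 and 4123 CPM and 4584, 4789.5 and 2293 CPM. Chia1, a gastric chitinase, was at 4.02, 8.60 and 41.9 CPM with 4 reads in all in the ileum (9.51 ± 2.33, adjusted p = 0.00295). The hormone gene Ghrl, ghrelin, was at 153, 121 and 149 CPM against 1.58, 4.70 and 0.587 CPM (5.95 ± 0.73, adjusted p = 7.26e-06), and the mitochondrial creatine kinase gene Ckmt1 was higher (1.39 ± 0.26, adjusted p = 0.000396). Bhlha15, a factor of secretory cells with a large endoplasmic reticulum, was lower (3.34, 2.19 and 2.55 CPM against 7.33, 11.4 and 4.56 CPM; -1.53 ± 0.34, adjusted p = 0.00155). Pgc, Atp4a and Chia1 were not called with ileum replicate 2 as the only ileum library.

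Foregut transcription factor genes gave 6 higher and 3 lower of 14. Sox2, which specifies stomach and esophagus, was at 11.6, 11.1 and 11.4 CPM in the Cdx2+/- cecum, 0.681, 0.0743 and 0 CPM in the ileum and 0.397, 0.146 and 0.134 CPM in the WT cecum, with 7.96, 7.97 and 6.57 CPM in the WT stomach (5.49 ± 0.82, adjusted p = 4.87e-05 against the ileum). Sox21 (63.8, 45.9 and 49.1 CPM against 20.2, 15.6 and 16.6 CPM; 1.60 ± 0.31, adjusted p = 0.000477), the forkhead gene Foxq1, active in gastric mucin-forming cells (111, 78.9 and 80.4 CPM against 44.9, 16.5 and 39.2 CPM; 1.42 ± 0.36, adjusted p = 0.00351), and Foxa2 (1.95 ± 0.46, adjusted p = 0.00246) were higher. Meis2 (10.5, 9.43 and 13.4 CPM against 58.3, 41.95 and 48.2 CPM; -2.16 ± 0.34, adjusted p = 8.14e-05), Hhex (-1.72 ± 0.37, adjusted p = 0.00106) and Grhl3, a factor of barrier epithelia (-1.98 ± 0.58, adjusted p = 0.0103), were lower. The gastric counts of the fit with ileum replicate 2 as the only ileum library are given in the closing section. Foxa2 and Grhl3 were not called with ileum replicate 2 as the only ileum library.

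**Figure D3:**
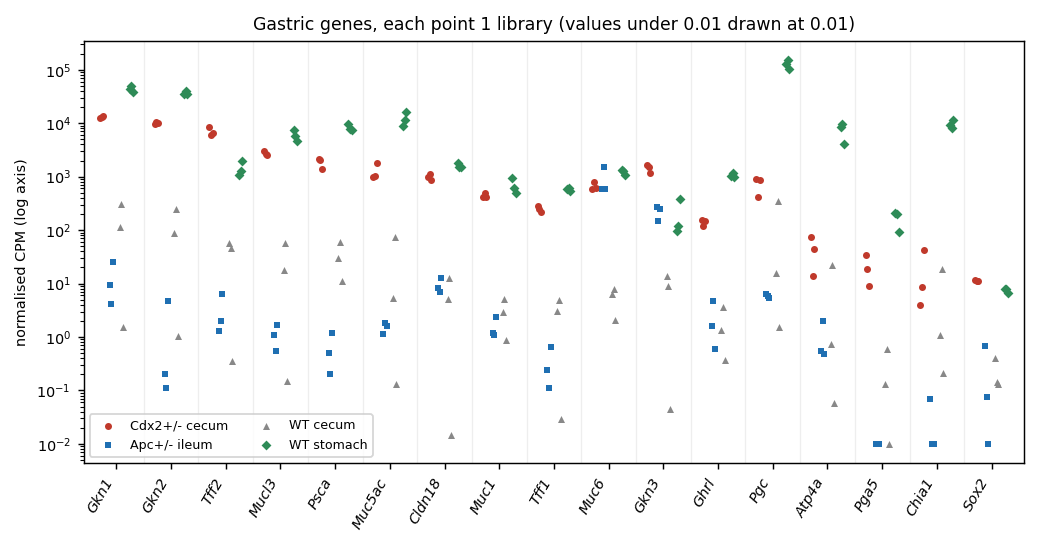
Normalised CPM (vertical axis, log scale) of 17 gastric genes (horizontal axis) in the Cdx2+/- cecum, Apc+/- ileum, WT cecum and WT stomach; each point is 1 library. Gkn1 to Tff1 separate the Cdx2+/- cecum from the ileum, Muc6 does not, and the gland genes Pgc, Atp4a and Chia1 lie far under the WT stomach.

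Squamous genes fell into a set that was low in replicate 2 of the Cdx2+/- cecum and a set present in all 3 libraries. Of 14 keratin genes of stratified epithelium tested, 10 were higher and 0 lower, with a median of 3.54, and their summed level was 45.3 to 1340.1 CPM in the Cdx2+/- cecum, against 30.02 to 58.3 CPM in the ileum. Trp63, the p63 factor that defines basal cells of stratified epithelium, was at 8.90, 0.0174 and 5.44 CPM against 0.102, 0.0928 and 0.201 CPM (5.14 ± 1.28, adjusted p = 0.00329). Krt5 was at 197, 0.382 and 122 CPM against 0.153, 0.204 and 0.17 CPM (9.23 ± 1.86, adjusted p = 0.000669), and its partner Krt14 at 218, 1.01 and 106 CPM against 6.55, 5.31 and 13.2 CPM (3.69 ± 1.30, adjusted p = 0.0276). In Trp63 and Krt14 replicate 2 lay under every ileum library, and in Krt5 slightly above. In Krt1, Krt10 and Krt13 replicate 2 was the lowest of its group too, though above every ileum library. Krt1 was at 67.2, 0.521 and 15 CPM against 0.0851, 0 and 0.0927 CPM (8.77 ± 1.48, adjusted p = 0.000141), Krt10 at 126, 4.76 and 32.6 CPM against 2.42, 1.67 and 2.29 CPM (4.68 ± 0.76, adjusted p = 0.000106) and Krt13, an esophageal-type keratin, at 204, 17.9 and 84.1 CPM against 3.57, 1.87 and 6.03 CPM (4.73 ± 0.97, adjusted p = 0.000763). Krt17 (54.2, 0.139 and 42.5 CPM against 3.28, 6.92 and 3.97 CPM; 2.77 ± 0.97, adjusted p = 0.0273) and Krt6a (163, 0.313 and 67.7 CPM against 6.76, 2.99 and 13.4 CPM; 3.32 ± 1.37, adjusted p = 0.0555, not called), keratins of activated keratinocytes, were low in replicate 2 too. Krt4, of suprabasal layers, was at 113, 0.538 and 18.2 CPM against 5.26, 1.65 and 9.07 CPM, with replicate 2 under every ileum library, and was not called (3.04 ± 1.26, adjusted p = 0.0562); it was added after its values were seen. Fitted with replicate 2 as the only Cdx2+/- library, none of these 9 genes was called higher, and Krt17 was called lower (-5.06; adjusted p = 0.00337). The call of Krt14 ended without Cdx2+/- cecum replicate 1 or Apc+/- ileum replicate 1 or 2 (adjusted p = 0.0848 to 0.123). The call of Krt17 ended without Cdx2+/- cecum replicate 1 or 3 or Apc+/- ileum replicate 1 or 3 (adjusted p = 0.0673 to 0.107). Krt5, Trp63, Krt14 and Krt17 were not called with ileum replicate 2 as the only ileum library.

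Cornified envelope genes, which encode the cross-linked shell of terminal keratinocytes and their linkers, gave 28 higher and 1 lower of 34, with a median of 3.05. Krtdap was at 50.9, 0.104 and 35.9 CPM with 0 reads in the ileum (adjusted p = 0.00505), Sprr3 at 15.4, 0.0695 and 15.3 CPM against 0, 0.0186 and 0.0618 CPM (8.41 ± 2.25, adjusted p = 0.00734), and the protease inhibitor gene Spink5 at 22.5, 0.104 and 5.64 CPM against 0.051, 0 and 0.0154 CPM (8.57 ± 1.80, adjusted p = 0.000936). Klk10, a kallikrein protease, was at 12.7, 0 and 2.53 CPM with 1 read in the ileum, a ratio of 987 (95% counting interval 177 to 38991) in the means. Lypd3, a surface protein of suprabasal cells, was at 23.4, 1.88 and 12.9 CPM against 0.391, 0.353 and 0.618 CPM (4.79 ± 0.76, adjusted p = 7.51e-05). In these 5 genes replicate 2 was the lowest of the Cdx2+/- libraries. Others did not share the split. Ivl, involucrin, an early envelope protein, was at 14.4, 25.8 and 18.9 CPM against 1.96, 1.06 and 4.71 CPM (2.93 ± 0.73, adjusted p = 0.00344), with replicate 2 the highest. The small proline-rich genes Sprr2a3 (2908, 2405 and 2387 CPM against 286, 225 and 438 CPM; 3.02 ± 0.69, adjusted p = 0.00179) and Sprr1a (337, 291 and 235 CPM against 24.5, 26.1 and 47.3 CPM; 3.14 ± 0.72, adjusted p = 0.00185) were higher in all 3 libraries, though Sprr2 copies can exchange reads and the WT cecum held 617, 80.3 and 49.8 CPM of Sprr1a. Ly6d, a surface protein of keratinocytes, was at 681, 662 and 644 CPM against 122, 64.97 and 139 CPM (2.61 ± 0.62, adjusted p = 0.0024) with at most 6.83 CPM in the WT cecum, and Tprg, a p63-regulated gene, at 9.58, 15.8 and 5.82 CPM against 0.0681, 0.0371 and 0.0154 CPM (7.95 ± 1.35, adjusted p = 0.000155). Ppl, periplakin, was lower (46.4, 27.02 and 39.5 CPM against 76.8, 47.1 and 87.4 CPM; -0.90 ± 0.25, adjusted p = 0.00636). Krtdap, Ppl and Sprr3 were not called with ileum replicate 2 as the only ileum library.

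Desmosome and basal cell genes gave 10 higher and 1 lower of 18. Pax9, a factor of pharyngeal and esophageal epithelium, was at 22.2, 14.6 and 20.6 CPM against 0.306, 0.316 and 0.618 CPM (5.52 ± 0.80, adjusted p = 3.63e-05) and at most 0.251 CPM in the WT cecum. Dsc2, a desmosomal cadherin (503, 569 and 552 CPM against 255, 288 and 267 CPM; 1.01 ± 0.16, adjusted p = 6.84e-05), and Perp, a desmosome-associated p63 target (449.5, 398 and 431 CPM against 169.6, 151 and 191 CPM; 1.32 ± 0.26, adjusted p = 0.000459), were higher in every library and close to the WT cecum. Col17a1, a hemidesmosome collagen, was at 7.84, 0.122 and 5.84 CPM against 0.323, 0.371 and 0.154 CPM (4.02 ± 0.91, adjusted p = 0.00163). Pkp1, plakophilin, was lower (67.2, 19.7 and 40.6 CPM against 104, 79.02 and 141 CPM; -1.35 ± 0.34, adjusted p = 0.00363). Without Cdx2+/- replicate 2, 53 of 71 squamous genes tested were called higher and 2 lower, beside 3847 and 3565 of all 20963 genes. The fit with replicate 2 as the only Cdx2+/- library is given in the closing section. Of the 66 squamous genes tested in the main fit, 24 were more than 10 times lower in replicate 2 than in both other libraries. Col17a1 and Pkp1 were not called with ileum replicate 2 as the only ileum library.

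**Figure D4:**
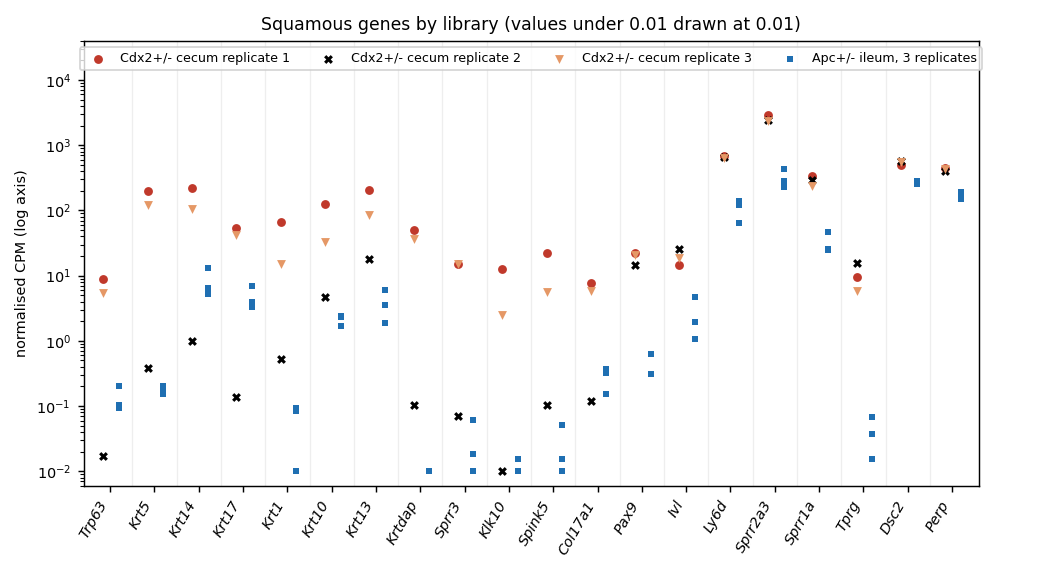
Normalised CPM (vertical axis, log scale) of 20 squamous genes (horizontal axis) in each Cdx2+/- cecum library, marked by replicate, and in the 3 Apc+/- ileum libraries. From Trp63 to Col17a1 replicate 2 lies far under replicates 1 and 3, and from Pax9 to Perp the 3 libraries lie together above the ileum.

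Wnt target and stem cell genes were lower in the Cdx2+/- cecum in 18 of 20 cases and higher in 0, with a median of -3.06. Notum, a secreted Wnt inhibitor induced by Wnt signalling, was at 1.13, 0.799 and 1.04 CPM against 217, 191 and 163 CPM (-7.59 ± 1.03, adjusted p = 1.86e-05). Nkd1, another feedback inhibitor, was at 2.15, 2.07 and 3.06 CPM against 456, 363 and 409 CPM (-7.40 ± 0.72, adjusted p = 9.73e-07), and Axin2 at 15.4, 30 and 21.1 CPM against 225, 175 and 211 CPM (-3.20 ± 0.43, adjusted p = 1.65e-05). Lgr5, the receptor that marks crypt base stem cells, was at 1.87, 3.89 and 2.71 CPM against 203, 332 and 125 CPM (-6.28 ± 0.80, adjusted p = 1.02e-05). Prox1 (1.17, 1.91 and 1.85 CPM against 273, 405 and 245 CPM; -7.54 ± 0.92, adjusted p = 6.89e-06), Tnfrsf19 (0.825, 0.921 and 1.03 CPM against 109, 292 and 108 CPM; -7.52 ± 0.62, adjusted p = 3.18e-07) and the transcription factor gene Lef1 (1.11, 0.955 and 0.751 CPM against 26.5, 20.9 and 21.6 CPM; -4.61 ± 0.36, adjusted p = 3.17e-07) were lower as well. The WT cecum held 0.371, 0.544 and 0.119 CPM of Notum, under every Cdx2+/- library, and 2.81, 1.97 and 9.27 CPM of Lgr5, overlapping them. Against the WT cecum, 7 of the 20 genes were higher and 2 lower in the Cdx2+/- cecum (17.1% and 17.3% of all genes). Their summed level was 759 to 830 CPM in the Cdx2+/- cecum, 3003 to 3502 CPM in the ileum and 225 to 385 CPM in the WT cecum. Proliferation genes were lower in 15 of 20 cases and higher in 0, with a median of -0.85, among them the replication licensing genes Mcm7 (50.5, 49.8 and 48.8 CPM against 126, 103 and 159 CPM; -1.38 ± 0.20, adjusted p = 3.41e-05) and Mcm4 (-1.24 ± 0.22, adjusted p = 0.000194). Set against the WT cecum, 14 of the 20 proliferation genes were higher in the Cdx2+/- cecum and 0 lower.

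**Figure D5:**
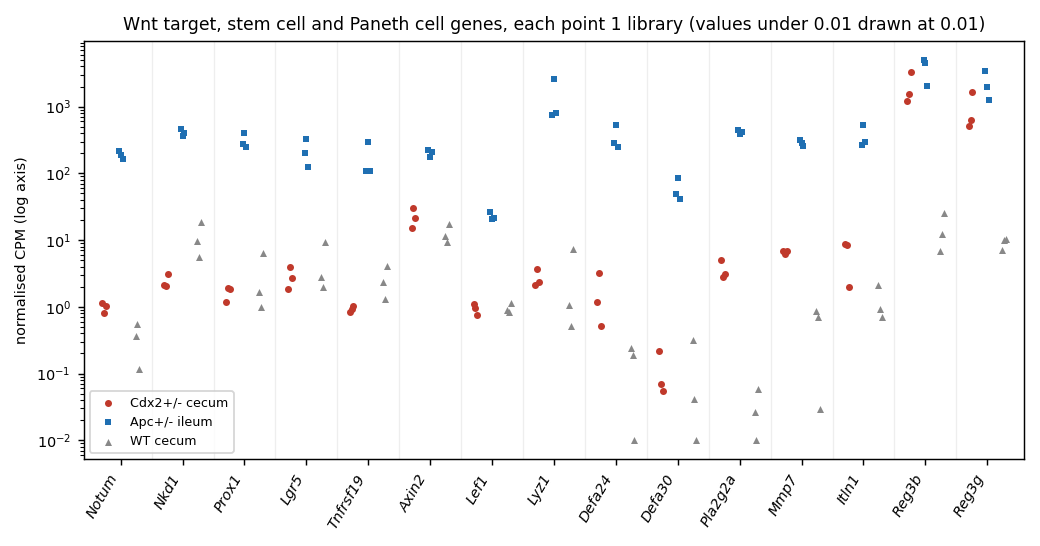
Normalised CPM (vertical axis, log scale) of Wnt target and stem cell genes and Paneth cell genes (horizontal axis) in the Cdx2+/- cecum, Apc+/- ileum and WT cecum; each point is 1 library. From Notum to Itln1 every ileum library lies above every Cdx2+/- library, and Reg3b and Reg3g overlap.

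Genes of fetal-like and regenerating epithelium gave 6 higher and 1 lower of 17. Beside each list of this paragraph stand 22.0% of all genes higher and 22.1% lower. Clu, clusterin, was at 7496, 7486 and 7547 CPM against 3314, 1326 and 2956 CPM (1.57 ± 0.50, adjusted p = 0.0163) and at 111, 74.4 and 25.2 CPM in the WT cecum. Anxa3 (306, 282 and 299 CPM against 82.1, 52.4 and 101 CPM; 1.91 ± 0.31, adjusted p = 9.97e-05) and the growth factor gene Areg (221, 142 and 166 CPM against 16.05, 13.05 and 19.7 CPM; 3.44 ± 0.64, adjusted p = 0.000328) were higher. Inflammatory mediator genes gave 6 higher and 3 lower of 21. Il1a (1.41 ± 0.29, adjusted p = 0.000752) and the NF-κB regulator gene Nfkbiz (1.16 ± 0.19, adjusted p = 0.000115) were higher, while Lcn2, an iron-sequestering defence protein (16.1, 6.60 and 20.4 CPM against 281, 215 and 158 CPM; -3.92 ± 0.67, adjusted p = 0.000161), and Icam1 (-1.31 ± 0.31, adjusted p = 0.00251) were lower. Of 16 interferon response genes, 2 were higher, Rsad2 (16.2, 170.03 and 69.4 CPM against 7.64, 2.62 and 11.7 CPM; 3.54 ± 1.08, adjusted p = 0.0127) and Mx1 (2.43 ± 0.76, adjusted p = 0.0144), and 0 lower. In Rsad2 the Cdx2+/- libraries differed widely among themselves. The call of Clu ended without Apc+/- ileum replicate 2 (adjusted p = 0.0756). The call of Mx1 ended without Apc+/- ileum replicate 2 (adjusted p = 0.0577). The call of Rsad2 ended without Cdx2+/- cecum replicate 2 or Apc+/- ileum replicate 2 (adjusted p = 0.054 to 0.0708). Icam1, Rsad2 and Mx1 were not called with ileum replicate 2 as the only ileum library.

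Markers of other cell types were read against the background of 22.0% of genes higher and 22.1% lower. For fibroblasts, smooth muscle and B and plasma cells the share of lower genes was above it, and for macrophages, T and innate lymphoid cells and endothelium the shares in both directions were under it. Fibroblast and matrix genes were lower in 7 of 14 cases, led by the receptor gene Pdgfrb (32.6, 38.3 and 43.1 CPM against 78.7, 90.99 and 81.2 CPM; -1.14 ± 0.20, adjusted p = 0.000206) and the collagen gene Col1a1 (-2.20 ± 0.36, adjusted p = 0.000121), with a summed level of 1019.8 to 1455 CPM against 2745 to 4086 CPM in the ileum. Smooth muscle genes were lower in 5 of 14, such as Hspb7 (-2.33 ± 0.58, adjusted p = 0.0034) and Des, desmin (13.7, 16.3 and 70.1 CPM against 105, 118 and 129 CPM; -1.81 ± 0.56, adjusted p = 0.0142), and summed to 304 to 858 CPM against 846 to 1241 CPM. Neuron and glia genes gave 1 higher, Erbb3, which epithelium also expresses (0.70 ± 0.21, adjusted p = 0.0121), and 4 lower, among them Uchl1 (-3.07 ± 0.53, adjusted p = 0.000185) and Vip (-4.08 ± 0.95, adjusted p = 0.00213). B and plasma cell genes were lower in 8 of 15, and ileum replicate 1 set part of this: Fcer2a was at 11.3, 0.408 and 0.294 CPM and Cd79a at 45.6, 10.5 and 7.06 CPM in the ileum, and without that library their log2 fold changes were 0.23 and -1.13, neither called. The call of Cd79a ended without Cdx2+/- cecum replicate 3 as well (adjusted p = 0.0547). Macrophage genes gave 2 lower of 16, Csf1r (-0.73 ± 0.27, adjusted p = 0.0326) and C1qb (-0.73 ± 0.27, adjusted p = 0.0362), T and innate lymphoid genes 1 higher, Gzmb (2.12 ± 0.66, adjusted p = 0.0146), and 1 lower, Zap70 (-1.55 ± 0.46, adjusted p = 0.011), and endothelial genes 1 lower of 12, Cdh5 (-1.30 ± 0.30, adjusted p = 0.00184). Mast cell genes gave 3 higher of 11, among them Mcpt4 (8.25, 8.08 and 5.66 CPM against 1.31, 0.965 and 1.64 CPM; 2.49 ± 0.62, adjusted p = 0.00358) and Fcer1a (1.77 ± 0.44, adjusted p = 0.00328). Of 12 pancreatic acinar genes 5 were tested and 1 was higher, Cela1, an elastase that intestine also expresses (1.41 ± 0.51, adjusted p = 0.0304). Summed levels, Cdx2+/- cecum first, were 405 to 544 CPM against 305 to 345 CPM for neurons and glia, 1092 to 1169.8 CPM against 1320.4 to 2091 CPM for B and plasma cells, 270.2 to 282 CPM against 322 to 527 CPM for macrophages and neutrophils, and 69.05 to 90.96 CPM against 50.2 to 86.4 CPM for T and innate lymphoid cells. They were 146 to 177 CPM against 39.5 to 92.96 CPM for mast cells, 267 to 319 CPM against 295 to 381 CPM for endothelium and 203 to 325 CPM against 64.9 to 101 CPM for acinar genes, of which 6 had 0 reads in the Cdx2+/- cecum and 4 in the ileum. No member of the other lists of this paragraph was at 0 in either group. The part of these cell types in the epithelial results was not tested. The call of C1qb ended without Cdx2+/- cecum replicate 1, 2 or 3 or Apc+/- ileum replicate 1 or 2 (adjusted p = 0.0551 to 0.153). The call of Cela1 ended without Cdx2+/- cecum replicate 1 or 2 or Apc+/- ileum replicate 1 or 3 (adjusted p = 0.066 to 0.0936). The call of Csf1r ended without Cdx2+/- cecum replicate 1 or 3 or Apc+/- ileum replicate 1 or 2 (adjusted p = 0.0862 to 0.0981). The call of Des ended without Cdx2+/- cecum replicate 1 or 2 (adjusted p = 0.0699 to 0.0701). The call of Erbb3 ended without Cdx2+/- cecum replicate 2 (adjusted p = 0.0628). The call of Gzmb ended without Cdx2+/- cecum replicate 2 (adjusted p = 0.0631). Des, Erbb3, Fcer2a, Cd79a, Gzmb, Csf1r, C1qb, Mcpt4, Cdh5 and Cela1 were not called with ileum replicate 2 as the only ileum library.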

How the data were processed

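Total RNA (Trizol) was sequenced after TruSeq mRNA v2 preparation, per the labels' protocols. The authors deposited raw read counts per gene; the submitters' processing notes name CASAVA, TopHat2 2.0.11, HTSeq 0.5.3p3 and GRCm38, and the strand setting is not given in the sources used here. The counts were made by the authors per library, and 5 closing entries of each count list were left out. In the Cdx2+/- cecum and the ileum, reads in no feature made up 6.62% to 7.00% and 7.45% to 10.19% of gene reads plus these entries, ambiguous reads 2.99% to 3.10% and 2.48% to 2.72%, and multiply aligned reads 21.99% to 25.09% and 20.76% to 26.15%.

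Here, 24 libraries in 8 groups of 3 were fitted together (R 4.3.3, edgeR 4.0.16, TMM, filterByExpr, quasi-likelihood F test, Benjamini-Hochberg adjustment), without a replicate block. SE is the log2 fold change over the root of F, and 95% intervals are approximate. Folds against 0 reads use a floor of 3 reads per library. Alternatives used DESeq2 1.42.0 and limma 3.58.1. The fit was tested on simulated data.

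Members and gene lists were chosen with earlier results of these data known. Named genes are Cdx2, Cdx1, Apc and Sox2, the 8 largest called changes each way (at least 10 CPM in the higher group, no overlap, no predicted, immunoglobulin, T cell receptor or Y-linked genes), and the called members of smallest adjusted p, up to 4 each way for absorptive, gastric, squamous and reference lists and 2 for others; 127 came from this rule, and 51 were chosen after their values were seen. Of these, 3 are not reported here.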

Additional observations from a re-analysis of the deposited data

How the results depend on the processing

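With ileum replicate 2 as the only ileum library, 2516 genes were called higher and 3031 lower, and the counts were 13 higher and 5 lower for absorptive, 19 higher and 4 lower for gastric, and 22 higher and 0 lower for squamous genes. With Cdx2+/- cecum replicate 2 as the only cecum library, an alternative added after seeing the data, 2433 genes were called higher and 1911 lower, with 18 absorptive genes higher and 5 lower, 23 gastric higher and 2 lower, and 16 squamous higher and 4 lower. In both fits the lone library is assumed to vary like the other groups, and fewer samples enter. The 6 libraries alone gave 40 of 108 absorptive genes higher, beside 4742 of all 18500 genes. The limma-voom fit gave 9 of 109 absorptive genes lower, beside 4314 of all 20502 genes. The cause was not tested. Leaving out 1 library at a time gave 3669 to 4003 genes higher and 3531 to 4123 lower, absorptive 22 to 26 and 11 to 18, gastric 26 to 31 and 4 to 6, squamous 37 to 53 and 2 to 2. Same-numbered cecum and ileum libraries did not deviate together (correlations 0.018, -0.006 and -0.047), and not every library correlated best with its own number. With 3 libraries per group, these values cannot exclude a weak pairing by number. A fit of the 6 libraries with the replicate block gave 4397 genes higher and 4462 lower. Of 155 named genes called, 76 kept direction and call under all 17 alternatives, 79 lost the call in at least 1 and 8 changed direction in at least 1; most losses came with ileum replicate 2 alone (60) or cecum replicate 2 alone (54). Log2 fold changes that turned, the cause of which was not tested, were these. With RLE scaling, Apc was at -0.00693. With upper quartile scaling, Apc was at -0.16 and Gata5 at -0.12. With a filter of 1 CPM in 3 libraries, Apc was at -0.0223. With DESeq2, Apc was at -0.00684. With the 6 libraries alone, Apc was at -0.0282 and Gata5 at -0.00431. With ileum replicate 2 alone, Apc was at -0.51, Fabp1 at 1.18, Plb1 at 0.28, Apoa1 at 0.48, Mttp at 0.61 and Npc1l1 at 0.68. With cecum replicate 2 alone, Col17a1 was at -1.19, Klk10 at -1.78, Apoa1 at 0.16, Mttp at 0.18, Npc1l1 at 0.62, Trp63 at -2.78, Krt14 at -3.04, Krt17 at -5.06 and Krt6a at -4.61. With the replicate block, Gata5 was at -0.00554. On leaving out 1 library, values ran for Apc from -0.13 to 0.36, Fcer2a from -3.83 to 0.23, Muc6 from -0.65 to 0.20, Mttp from -0.56 to 0.12, Npc1l1 from -0.48 to 0.40, Slc6a19 from -0.13 to 0.95, Naaladl1 from -0.024 to 0.56 and Muc2 from -0.27 to 0.0133. Reads per library limit genes near 0: folds there are bounds.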

Other observations

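In the ileum of mice labelled conditional Cdx2-/-;Apc+/-, which belongs to no comparison above, gastric and absorptive genes differed between the 3 libraries. Gkn1 was at 1953, 118 and 3749.7 CPM and Tff2 at 548, 20.6 and 760.1 CPM, with replicate 2 the lowest in both. Sis was at 89.9, 999 and 43.6 CPM and Fabp6 at 17.9, 2016 and 1.34 CPM, with replicate 2 the highest in both. Cdx2 transcript was not absent, at 78.9, 178 and 36.9 CPM, against 90.1, 63.3 and 112 CPM in the Apc+/- ileum. Slc38a4, near 0 in the Cdx2+/- cecum, was at 228, 289 and 319 CPM.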
